A study of Mus musculus with 6 samples.

Results

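*Deptor* and 9 genes of the mTOR kinase complexes and of their immediate control were followed in bulk RNA-seq of mouse neurofibroma and dorsal root ganglion (DRG). The members were chosen by name, as *Deptor*, *Mtor*, *Rptor*, *Rictor*, *Mlst8*, *Akt1s1*, *Tsc1*, *Tsc2*, *Rheb* and *Ddit4*. All 10 were among the 24062 gene symbols counted, and all 10 were among the 15652 genes with enough counts to be tested.

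The libraries came from 6 mice on a C57BL/6-I129 background. In 3 of them, from *Nf1*fl/fl;DhhCre mice and called Nf1 libraries, both copies of *Nf1* are floxed, and Cre driven by the *Dhh* promoter deletes them in Schwann cells (SCs) and their precursors, so that neurofibromas form. The other 3 libraries are labelled double knockout, for mice that are also floxed for *Runx1* and *Runx3* on top of the *Nf1* alleles and DhhCre, and are called dKO-labelled. The labels leave *Nf1*fl/fl out of this second genotype and call its tissue tumor and that of the first DRG, while the methods of the study give both genotypes with *Nf1*fl/fl and both tissues as DRG/tumors. Mouse ages are not given in the sources used here, and neurons, immune cells, fibroblasts and other cells without Cre keep intact copies of the floxed genes. For its survival cohort the study states that littermates of the double knockout with intact *Runx1* and *Runx3* could not be bred. The labels name no litter or day for these mice, so litter and genotype label cannot be told apart, and p-values measure the spread between these libraries.

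Total counts per library ranged from 12439296 to 16682194. *Runx1* was at 84.0, 78.9 and 185 CPM (reads scaled to library size) in the dKO-labelled libraries. In the others it was at 131, 141 and 172 CPM, so bulk *Runx1* RNA was not reduced in dKO-labelled replicate 3. That replicate also had the most DRG neuron marker RNA, a summed 15348 CPM. Neurons keep intact *Runx1*, and their part in this level was not tested. *Runx3* was at 13.5, 10.3 and 12.1 CPM in the dKO-labelled libraries, replicate 3 included, below its 19.9, 15.1 and 29.9 CPM in the others, with a log2 value of -0.79 (± 0.30 SE, limma-voom adjusted p = 0.104). *Nf1*, floxed in both groups, was at 302 ± 30.8 CPM (SD, n = 3) and, where dKO-labelled, 290 ± 44.5 CPM (SD, n = 3). The group is therefore named by its label throughout. SC markers were present in every library, with *Sox10* between 195 and 256 CPM, and 19 of 20 DRG neuron markers rose in the dKO-labelled libraries while 10 of 12 macrophage markers fell. Skeletal muscle markers were high in replicate 2 of each group. In bulk RNA, fewer cells of a type and less RNA per cell cannot be told apart.

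mTOR is a protein kinase that joins growth factor, energy and amino acid signals to protein synthesis, cell growth and autophagy. It works in complexes that share the subunit MLST8, mTORC1 with RPTOR and mTORC2 with RICTOR, and DEPTOR binds mTOR in both and inhibits it. The TSC1/TSC2 complex switches off RHEB, the small GTPase that activates mTORC1 at the lysosome, and DDIT4 (REDD1) acts through TSC1/TSC2 to lower mTORC1 activity under stress. Neurofibromin, the product of *Nf1*, restrains RAS, which feeds into PI3K and mTOR, and mTORC1 activity affects SC growth and myelination. The counts measure RNA, so kinase activity and the amount of each protein were not measured here.

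*Deptor* and *Mlst8* rose in the dKO-labelled libraries, and no member fell. *Deptor*, the inhibitor, was 2.09-fold higher by the group means, and *Mlst8*, the subunit shared by both complexes, was 2.25-fold higher. The kinase itself, both defining subunits, the TSC genes, *Rheb*, *Akt1s1* and *Ddit4* did not pass the test. A gene passed when its adjusted p-value in limma-voom, with Benjamini-Hochberg adjustment over all genes tested, was below 0.05. Of all genes tested, 19.3% passed, with 11.1% higher and 8.22% lower in the dKO-labelled libraries. The members' share, 2 of 10, was close to that background. Both genes that rose also changed by more than 2-fold, as did 13.4% of all genes tested. *Deptor* was only just above that cut, and fell below it when scaled by library size only (log2 fold change 0.94) or with sex as a covariate (0.89), among other settings. *Mlst8* fell below it without Nf1 replicate 2 (0.94) and with replicate 2 of both groups left out (0.85).

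**Figure D1:**
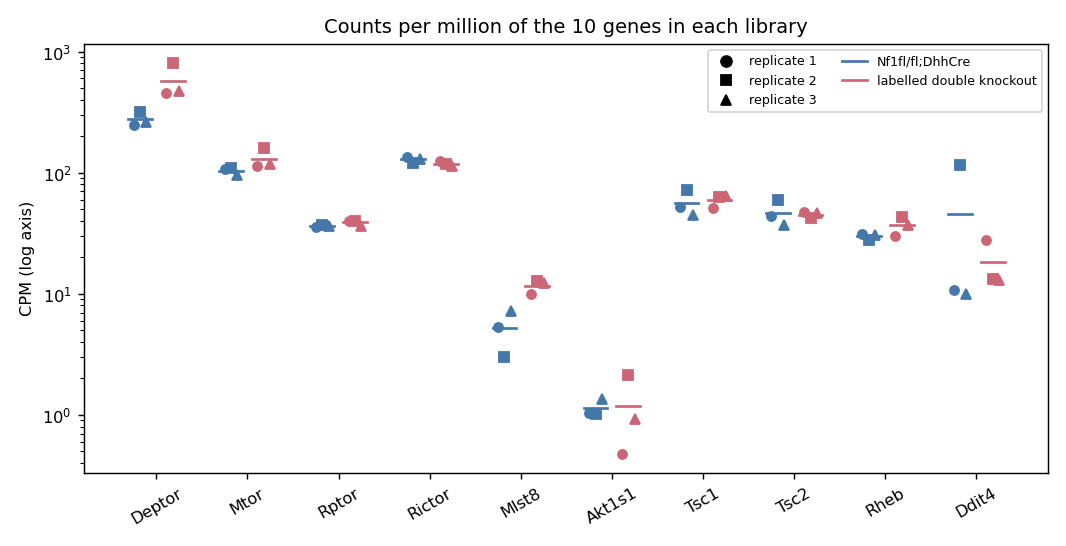
Level of each gene in each library in CPM on a log axis, with blue for the Nf1fl/fl;DhhCre libraries and red for the dKO-labelled libraries, 1 symbol shape per replicate and a line at each group mean. Deptor was the gene with the most counts in every library, its groups did not overlap, and Ddit4 was far higher in 1 Nf1 library than in the other 5.

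*Deptor* (ENSMUSG00000022419, GRCm38 chr15:55112317-55259271, plus strand) was at 247, 315 and 263 CPM in Nf1 replicates 1 to 3 and at 451, 797 and 472 CPM in the dKO-labelled libraries. All 3 dKO-labelled libraries were above all 3 others, and replicate 2 was the highest of each group. The means were 275 ± 35.2 CPM (SD, n = 3) and 573 ± 194 CPM (SD, n = 3). The log2 fold change was 1.01 (± 0.23 SE, 95% interval 0.47 to 1.56, limma-voom adjusted p = 0.0266). The study names *Deptor* among genes it considers highly plausible direct targets of RUNX1 and RUNX3. It selected them by crossing RNA-seq with RUNX1 binding (ChIP-seq) and open chromatin (ATAC-seq), and reports qRT-PCR of their expression. These libraries were part of that selection, so the direction of *Deptor* here is not independent evidence. These values rest on 3567 to 9697 reads per library. The RNA was amplified, so such read numbers speak to counting error only. The interval reflects the spread between libraries, in which mouse, tissue content and sequencing run were not separated.

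Leaving out each library in turn gave *Deptor* log2 fold changes from 0.76 to 1.19, and 4 of the 6 fits passed. The call was lost without Nf1 replicate 1 (0.97, limma-voom adjusted p = 0.108) and without Nf1 replicate 3 (1.02, limma-voom adjusted p = 0.0902). Without dKO-labelled replicate 3, whose *Runx1* level was not reduced, the value was 1.13 (limma-voom adjusted p = 0.0382). The labels do not settle whether dKO-labelled replicate 2 or 3 came from another sequencing run than the rest, and without replicate 2 the log2 value was 0.76 (limma-voom adjusted p = 0.0388).

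Cell-type markers moved beside *Deptor*. The summed level of the 11 skeletal muscle markers was 84.8, 3603 and 7.06 CPM in Nf1 libraries and 70.4, 14378 and 95.7 CPM in the dKO-labelled ones. Replicate 2 was thus the highest of each group for the muscle markers as it was for *Deptor*. The defining marker *Ckm*, muscle creatine kinase, was at 3.26, 138 and 0.449 CPM and at 4.54, 641 and 4.62 CPM. With both replicates 2 left out, an alternative added after the data were seen, the *Deptor* log2 fold change was 0.87 (± 0.14 SE, limma-voom adjusted p = 0.0207).

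The summed level of the 20 DRG neuron markers was 2109, 3258 and 1913 CPM in Nf1 libraries and 7216, 8222 and 15348 CPM in the dKO-labelled ones. Within the dKO-labelled libraries, *Deptor* was highest in replicate 2 and the neuron markers in replicate 3. The neuron markers did not overlap between the groups, so the genotype label and the neuron content cannot be told apart for *Deptor* in these 6 libraries. With the neuron score (the mean log2 CPM of its markers) as a covariate, the *Deptor* log2 fold change was 0.86 (± 0.57 SE, limma-voom adjusted p = 0.654), and 10 of all genes tested passed in that fit. Myelinating SC markers, of which 11 of 12 rose, macrophage markers, of which 10 of 12 fell, and fibroblast markers, of which 6 of 7 fell, also moved with the label. None of the 6 adipocyte markers passed, though all 6 had a log2 fold change above 0. Their summed level was 281, 27.3 and 232 CPM in Nf1 libraries and 1102, 1152 and 120 CPM in the dKO-labelled ones. The part of these cell types in the *Deptor* result was not tested further.

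**Figure D2:**
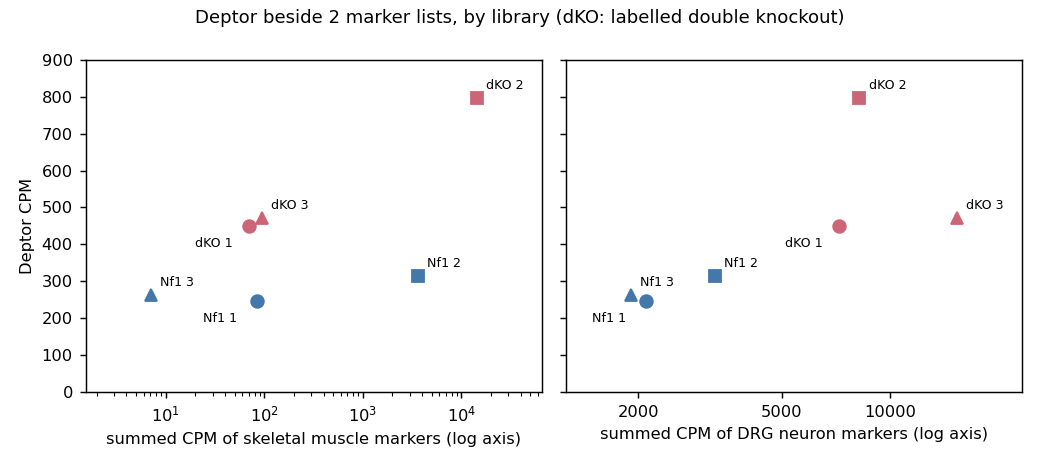
Deptor level in CPM against the summed CPM of the skeletal muscle markers (left, log axis) and of the DRG neuron markers (right, log axis), 1 point per library. Both replicates 2 stand apart on the muscle axis at 3603 and 14378 CPM, and the groups do not overlap on the neuron axis.

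*Deptor* was also set against marker lists within each library, which asks how its difference compares with that of each cell type's genes. Relative to the mean log2 CPM of 10 general SC markers, *Deptor* was 0.84 higher on the log2 scale in the dKO-labelled libraries, and the groups did not overlap (p = 0.1, two-sided exact permutation test). Relative to the neuron markers it was lower by the means, with a difference of -1.09 (p = 0.2, the same exact permutation test). Relative to the 12 myelinating SC markers the difference was -0.30 (p = 0.4, the same exact permutation test). With 3 libraries against 3 the smallest p that this test allows is 0.1. Relative to the macrophage, fibroblast, satellite glia and endothelium markers the differences were 3.30, 2.07, 0.60 and 0.55, each at p = 0.1 in the same exact permutation test. Relative to the muscle and adipocyte markers they were -0.82 and -1.25, at p = 0.9 and p = 0.5 in that exact permutation test.

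*Mtor* (ENSMUSG00000028991, chr4:148448611-148557683, plus strand), the kinase subunit of both complexes, was at 108, 108 and 95.1 CPM in Nf1 replicates 1 to 3 and at 114, 159 and 118 CPM in the dKO-labelled libraries. The groups did not overlap, although dKO-labelled replicate 1 was close to the highest Nf1 libraries. The log2 fold change was 0.31 (± 0.16 SE, 95% interval -0.07 to 0.69, limma-voom adjusted p = 0.215). *Mtor* is 1 of 3 members whose groups did not overlap, with *Deptor* and *Mlst8*. Over all genes tested 42.3% did not overlap.

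Because the inhibitor acts on the kinase, *Deptor* was also expressed per *Mtor* read within each library, which needs no scaling between libraries. There were 2.29, 2.90 and 2.76 *Deptor* reads per *Mtor* read in the Nf1 libraries and 3.97, 5.01 and 4.01 in the dKO-labelled ones. The groups did not overlap. The mean log2 ratio was 0.71 higher in the dKO-labelled libraries, a 1.63-fold difference (p = 0.1, two-sided exact permutation test, the smallest p possible). Relative to the mean log2 CPM of *Rptor*, *Rictor* and *Mlst8* the difference was 0.61 and the groups overlapped (p = 0.3, the same exact permutation test).

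*Mlst8* (ENSMUSG00000024142, chr17:24473551-24479078, minus strand) was at 5.27, 2.98 and 7.25 CPM in Nf1 replicates 1 to 3 and at 9.88, 12.7 and 12.3 CPM in the dKO-labelled libraries. All 3 dKO-labelled libraries were above all 3 others. The log2 fold change was 1.27 (± 0.34 SE, 95% interval 0.48 to 2.05, limma-voom adjusted p = 0.0396). The level was low, from 50 to 186 reads per library, and 1 of the 6 fits that each left out a library passed, that without Nf1 replicate 3, over log2 fold changes from 0.94 to 1.59. Without both replicates 2 it was 0.85 (limma-voom adjusted p = 0.139). The call was also lost with edgeR's quasi-likelihood test (1.17, adjusted p = 0.0543), with sex as a covariate (1.26, limma-voom adjusted p = 0.0622) and with the neuron score (1.84, limma-voom adjusted p = 0.468). *Bricd5*, on the opposite strand, shares 22.5% of the annotated exon bases of *Mlst8* and had 0 counts in every library. Whether the authors counted by strand is not stated, so reads from that stretch may have been left out or given to *Mlst8*.

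The defining subunits of the complexes stayed within narrow ranges. *Rptor* (ENSMUSG00000025583, chr11:119602905-119899576, plus strand), which brings substrates to mTORC1, was at 35.6, 37.2 and 36.1 CPM and at 39.7, 40.1 and 36.6 CPM, in the order Nf1 and dKO-labelled. The highest library was 1.13 times the lowest, the narrowest range of the 10 members. The log2 fold change of *Rptor* was 0.09 (± 0.13 SE, 95% interval -0.21 to 0.39, limma-voom adjusted p = 0.654). For *Rictor* (ENSMUSG00000050310, chr15:6708379-6800401, plus strand), the scaffold of mTORC2, the levels were 135, 120 and 131 CPM and 126, 117 and 114 CPM. Its groups overlapped, with a log2 fold change of -0.11 (± 0.11 SE, 95% interval -0.38 to 0.16, limma-voom adjusted p = 0.526). The intervals of both subunits lie inside a 2-fold change in either direction.

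*Akt1s1* (ENSMUSG00000011096, chr7:44848991-44855421, plus strand) encodes PRAS40, an mTORC1 inhibitor and AKT substrate. It had 15, 17 and 21 reads in the Nf1 libraries and 6, 26 and 14 in the dKO-labelled ones, close to 1 CPM. The groups overlapped and no difference was detectable, with a log2 fold change of -0.18 (± 0.61 SE, 95% interval -1.62 to 1.25, limma-voom adjusted p = 0.865). The interval spans changes of more than 2-fold in both directions.

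**Figure D3:**
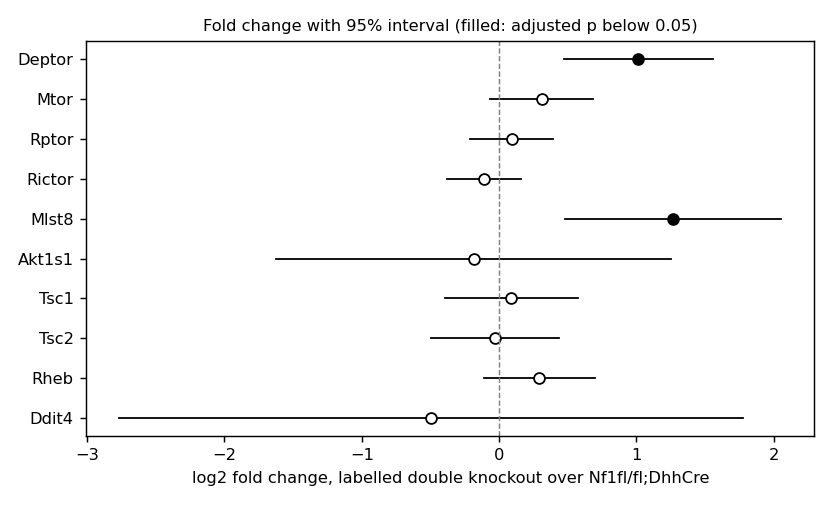
Log2 fold change of each gene, dKO-labelled libraries over Nf1, from limma-voom with its 95% interval, n = 3 per group. The intervals of Deptor and Mlst8 (filled points) lie above 0, and those of Akt1s1 and Ddit4 are the widest.

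Upstream of mTORC1, the genes of the TSC complex and *Rheb* overlapped between the groups. *Tsc1* (ENSMUSG00000026812, chr2:28641228-28691167, plus strand) was at 52.4, 72.2 and 45.0 CPM in Nf1 libraries and at 50.9, 62.6 and 64.6 CPM in the dKO-labelled ones. *Tsc2* (ENSMUSG00000002496, chr17:24595816-24632630, minus strand), the GTPase-activating subunit, was at 44.0, 59.3 and 36.6 CPM and at 46.9, 41.9 and 46.0 CPM. Nf1 replicate 2 was the highest of the 6 libraries for both. The log2 fold changes were 0.09 (± 0.21 SE, limma-voom adjusted p = 0.794) for *Tsc1* and -0.03 (± 0.20 SE, limma-voom adjusted p = 0.936) for *Tsc2*.

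*Rheb* (ENSMUSG00000028945, chr5:24802823-24842624, minus strand) was at 31.2, 27.8 and 30.5 CPM in Nf1 libraries and at 30.1, 43.1 and 37.3 CPM in the dKO-labelled libraries. dKO-labelled replicates 2 and 3 were above every Nf1 library, and replicate 1 was within their range. The log2 fold change was 0.29 (± 0.17 SE, 95% interval -0.11 to 0.70, limma-voom adjusted p = 0.271). The paralogs were tested beside the members. *Rhebl1*, a close relative of *Rheb*, lay between 2.62 and 4.30 CPM in all 6 libraries.

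*Ddit4* (ENSMUSG00000020108, chr10:59949669-59951834, minus strand) was the member that varied most within a labelled group. It was at 10.8, 115 and 9.94 CPM in Nf1 replicates 1 to 3 and at 28.1, 13.3 and 13.1 CPM in the dKO-labelled libraries. A single library, Nf1 replicate 2, was 10.7 and 11.5 times its 2 group mates, and rested on 1927 reads. Between the labelled groups the log2 fold change was -0.50 (± 0.97 SE, 95% interval -2.77 to 1.77, limma-voom adjusted p = 0.753). Without that library the sign turned, to 0.74 (limma-voom adjusted p = 0.236).

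*Fkbp5*, *Tsc22d3*, *Zbtb16* and *Per1*, which glucocorticoids induce, were highest in the same library as *Ddit4*, and *Sgk1*, which they also induce, was not. *Ddit4* is itself induced by glucocorticoids, by hypoxia and by p53, and a list of 15 inducers and genes induced with it was followed. The genes of this list described next were singled out after their values were seen. *Fkbp5*, a co-chaperone of steroid receptors, was at 19.8, 149 and 8.98 CPM in Nf1 libraries and at 31.9, 17.7 and 19.5 CPM in the dKO-labelled ones. *Tsc22d3*, which encodes the glucocorticoid-induced leucine zipper, was at 20.9, 206 and 15.7 CPM and at 72.3, 34.5 and 29.8 CPM. The transcription factor gene *Zbtb16* was at 25.5, 157 and 5.20 CPM and at 22.2, 31.3 and 13.1 CPM. Each of these 3 genes was at least 2.85 times as high in Nf1 replicate 2 as in the next library, and *Ddit4* was 4.09 times as high.

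*Per1*, a clock gene also induced by glucocorticoids, was at 20.7, 87.6 and 23.0 CPM and at 77.9, 39.6 and 33.3 CPM, so that dKO-labelled replicate 1 was nearly as high as Nf1 replicate 2. *Sgk1*, a kinase gene of the mTORC2 branch and not of the list, was at 39.0, 97.6 and 38.0 CPM and at 115, 73.9 and 39.8 CPM, highest in that dKO-labelled replicate 1. The latter was also the next highest library for *Ddit4*, *Fkbp5* and *Tsc22d3*. The receptor gene *Nr3c1* was at 163, 115 and 179 CPM and at 167, 159 and 126 CPM, lowest in Nf1 replicate 2. Among hypoxia-responsive genes of the list, *Adm* was highest in that library, at 5.90 CPM against 5.39 CPM in Nf1 replicate 3, and *Vegfa* and *Bnip3* were not. *Vegfa* was at 32.7 CPM there, its lowest value, and *Bnip3* at 29.9 CPM, within 1.26 times its group mates. In all, 5 of the 15 genes of the list were highest in Nf1 replicate 2, as were 14.7% of all genes tested. This library also carried muscle markers, whose part in its *Ddit4* level was not tested.

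**Figure D4:**
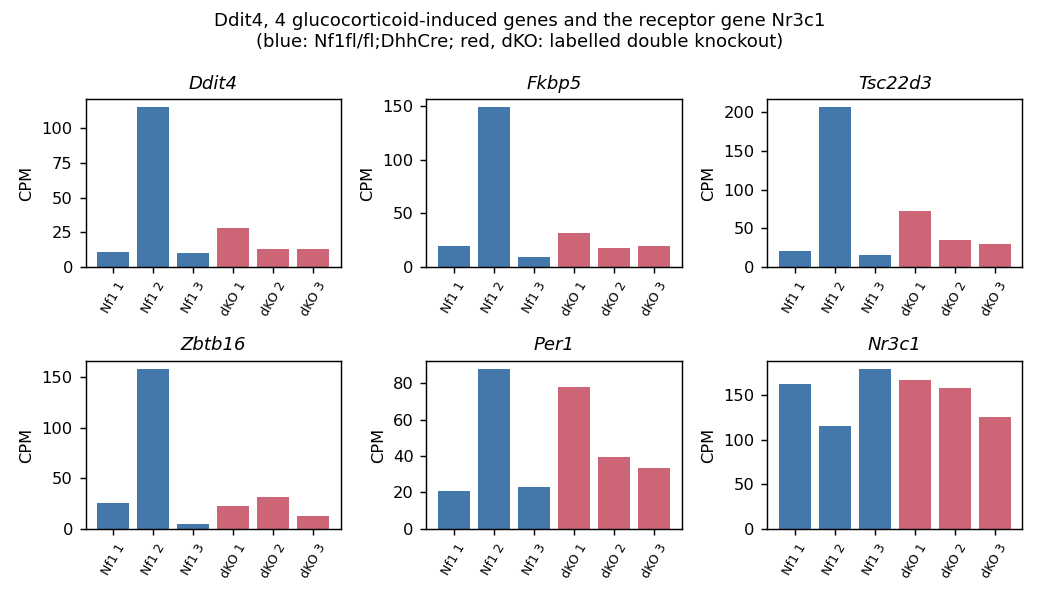
Level in CPM of Ddit4, of the glucocorticoid-induced genes Fkbp5, Tsc22d3, Zbtb16 and Per1 and of the receptor gene Nr3c1, 1 bar per library. Nf1 replicate 2 is the highest library for the first 5 genes, with 115 CPM of Ddit4, and the lowest for Nr3c1.

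The paralog *Ddit4l* had its own library that stood apart. It was at 8.18, 9.89 and 6.41 CPM in Nf1 libraries and at 3.35, 50.5 and 2.44 CPM in the dKO-labelled ones. The library with 50.5 CPM was replicate 2, the one with the highest muscle markers. Its log2 fold change was -0.21 (± 1.0 SE, limma-voom adjusted p = 0.907).

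Levels were compared between members per kilobase of annotated exon (GENCODE M21, union of all transcripts), in CPM per kb. By the group means *Deptor* was the highest of the 10 in both groups, at 31.0 ± 3.97 (SD, n = 3) and 64.6 ± 21.9 CPM per kb (SD, n = 3). *Mtor* followed among the complex subunits at 10.3 ± 0.744 (SD, n = 3) and 12.9 ± 2.49 CPM per kb (SD, n = 3). *Rictor* came next, at 7.59 ± 0.458 (SD, n = 3) and 7.02 ± 0.365 CPM per kb (SD, n = 3), and its library range did not overlap that of *Mtor* in the Nf1 libraries. *Tsc1*, *Tsc2* and *Rheb* had means between 3.86 and 5.02 CPM per kb, and neighbours among them overlapped in both groups. *Rptor* stood below them at 2.70 and 2.88 CPM per kb.

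*Mlst8* and *Akt1s1* were the lowest per kb. *Mlst8* was at 1.16 and 2.62 CPM per kb, below *Rptor* with no overlap in the Nf1 libraries and overlapping it in the dKO-labelled libraries. *Akt1s1* was last at 0.369 and 0.384 CPM per kb. *Ddit4* had no stable place, since its mean of 25.7 ± 34.4 CPM per kb (SD, n = 3) in the Nf1 libraries rests on 1 library at 65.4 while the others were at 6.13 and 5.67. In that library *Ddit4* was above *Deptor*, which was at 35.5 CPM per kb, so their ranges overlapped in the Nf1 libraries. By the longest transcript instead of all exons, *Deptor* stayed first and *Rptor*, *Mlst8* and *Akt1s1* stayed last in that order, but *Rictor* passed *Mtor* in the Nf1 libraries, at 13.8 against 12.1 CPM per kb.

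Promoter sequences were at hand for 9 of the 10 members (RefSeq, GRCm38.p6, 250 bases before to 50 after the start) and not for *Deptor*. Because *Runx1* and *Runx3* are the genes floxed by design, each promoter was searched on both strands for the RUNX core TGTGGT, which 16.8% of all 32851 promoters in the table hold. None of the 9 windows holds these letters. The E-box CACGTG, bound by MYC and by TFEB, a transcription factor controlled by mTORC1, is present in 7.15% of promoters and in 1 of the 9, that of *Rheb*. A match or its absence describes these windows and nothing about binding. Given here, 5′ to 3′ on the gene's strand, are the upstream bases outside annotated exons for *Mlst8*, the member with a promoter entry that rose (chr17:24479079-24479328, minus strand), and for *Ddit4*, the member with a single high library (chr10:59951835-59952020, minus strand), both without a match. The *Rheb* line holds 30 bases (chr5:24842440-24842469, minus strand) around its E-box, given in capitals.
Mlst8: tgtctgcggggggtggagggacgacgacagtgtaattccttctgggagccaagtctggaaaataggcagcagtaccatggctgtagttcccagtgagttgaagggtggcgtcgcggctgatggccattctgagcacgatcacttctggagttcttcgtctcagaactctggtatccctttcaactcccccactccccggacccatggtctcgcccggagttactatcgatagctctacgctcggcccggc
Ddit4: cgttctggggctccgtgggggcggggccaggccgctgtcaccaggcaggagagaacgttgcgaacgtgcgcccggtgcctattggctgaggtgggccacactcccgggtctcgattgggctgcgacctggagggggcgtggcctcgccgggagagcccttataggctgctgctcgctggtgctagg
Rheb: gccgcgcgcggtCACGTGggtgtgttgttg

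Around the members, 103 genes of the pathway in 7 lists were tested. Of these, 15 rose, 3 fell and 85 did not pass. The share that passed, 17.5%, was close to the 19.3% of all genes tested, with 11.1% higher and 8.22% lower there, and the median log2 fold change was 0.06, against 0.02 over all genes tested. Among 7 partners of the complexes, *Prr5*, an mTORC2 subunit that binds RICTOR, rose from 21.0, 26.9 and 22.6 CPM to 34.3, 35.9 and 39.9 CPM, a log2 change of 0.65 (± 0.16 SE, limma-voom adjusted p = 0.0330). The other 6 did not pass. With the neuron score as a covariate none of the 103 passed, against 10 of all genes tested, and neuron content and the label cannot be told apart in these libraries. The fitted fold changes moved in both directions in that fit. *Prr5* was at 0.14 there, did not pass with sex as a covariate (0.57, limma-voom adjusted p = 0.0566), and passed in 2 of 6 fits with 1 library left out.

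Amino acids reach mTORC1 through the RAG GTPases on the lysosome, which the GATOR1 complex switches off. Of 29 genes of this branch 3 rose, none fell, and the median log2 fold change was 0.11. That share is close to the 11.1% of all genes tested that were higher. *Rragb*, a RAG GTPase, was at 5.62, 5.30 and 5.64 CPM and at 9.24, 12.4 and 16.2 CPM, a log2 change of 1.17 (± 0.28 SE, limma-voom adjusted p = 0.0299). *Rraga*, its close paralog, rose by 0.62 (± 0.17 SE, limma-voom adjusted p = 0.0412), and *Depdc5*, a GATOR1 subunit, by 0.75 (± 0.21 SE, limma-voom adjusted p = 0.0485). On leaving out each library *Rragb* and *Rraga* passed in 1 of 6 fits and *Depdc5* in 2 of 6. With the neuron score *Rragb* was at 0.48, *Rraga* at 0.38 and *Depdc5* at -0.18 on the log2 scale. *Rraga* and *Depdc5* also did not pass with library size only, with every gene that had a count above 0, or with sex or the muscle score as covariate.

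Of 22 genes of PI3K, AKT and AMPK signalling 3 rose and 1 fell, beside 11.1% higher and 8.22% lower over all genes tested. The AMPK subunit genes *Prkag2* and *Prkab2*, of the energy sensor that restrains mTORC1, rose by 1.19 (± 0.17 SE, limma-voom adjusted p = 0.0100) and 1.15 (± 0.25 SE, limma-voom adjusted p = 0.0226) on the log2 scale. *Prkag2* was at 10.2, 9.23 and 11.4 CPM in Nf1 libraries and at 22.7, 23.8 and 23.4 CPM in the dKO-labelled ones. *Pik3cb*, a catalytic subunit of PI3K, fell by 0.61 (± 0.17 SE, limma-voom adjusted p = 0.0485). The receptor gene *Igf1r* was the other that rose, at 0.48 (± 0.12 SE, limma-voom adjusted p = 0.0357), and lies outside the naming rule. *Prkag2* passed in 5 of the 6 fits with 1 library left out, *Prkab2* in 2 and *Pik3cb* in 1. With the neuron score *Prkag2* was at 1.38, *Prkab2* at 0.48 and *Pik3cb* at -0.24 on the log2 scale, and *Pik3cb* also did not pass with sex as a covariate or with every gene that had a count above 0.

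Of 21 genes for mTOR substrates and effectors 3 rose and 1 fell, against 11.1% higher and 8.22% lower among all genes tested. *Prkca* and *Ndrg1*, whose products are phosphorylated along the mTORC2 branch, rose by 1.49 (± 0.20 SE, limma-voom adjusted p = 0.00919) and 0.71 (± 0.14 SE, limma-voom adjusted p = 0.0174). *Prkca* was at 257, 337 and 212 CPM against 678, 669 and 891 CPM. It passed in all 6 fits that each left out 1 library, and *Ndrg1* in 5 and *Lpin1* in 1 of them. With the neuron score the log2 values were 0.50 for *Prkca*, 0.93 for *Ndrg1* and 2.29 for *Lpin1* (limma-voom adjusted p = 0.549, 0.368 and 0.397). *Lpin1*, a phosphatidate phosphatase held out of the nucleus by mTORC1, rose by 1.51 (± 0.36 SE, limma-voom adjusted p = 0.0297). It was at 59.4, 74.7 and 62.9 CPM in Nf1 libraries and at 193, 311 and 110 CPM in the dKO-labelled ones. The summed adipocyte markers were likewise highest in dKO-labelled replicates 1 and 2. In the Nf1 libraries they were lowest in replicate 2, at 27.3 CPM, where *Lpin1* was highest. Replicate 2 was the highest of each group for *Lpin1* and for the muscle markers. With the muscle score as a covariate the *Lpin1* log2 value was 1.38 (limma-voom adjusted p = 0.0228). The part of either cell type in the *Lpin1* level was not tested further. The gene that fell was *Rps6*, for the ribosomal protein that S6 kinase phosphorylates, at -0.38 (± 0.11 SE, limma-voom adjusted p = 0.0477), outside the naming rule. These genes are also expressed in neurons and SCs, and the part of cell content in their change was not tested beyond the covariate fits.

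DEPTOR protein is marked for degradation by the ubiquitin ligase SCF with its F-box protein βTrCP, and OTUB1 removes that mark. Of the 7 genes of this turnover list 3 rose and all 7 had a log2 fold change above 0, with a median of 0.43. Of all genes tested 51.1% were above 0 and 11.1% were called higher. *Skp1a*, the adaptor of SCF, was at 71.2, 112 and 73.6 CPM and at 146, 157 and 199 CPM, a log2 change of 0.98 (± 0.21 SE, limma-voom adjusted p = 0.0222). *Rbx1*, its RING subunit, rose by 0.69 (± 0.16 SE, limma-voom adjusted p = 0.0272) and *Otub1*, the deubiquitinase, by 0.74 (± 0.20 SE, limma-voom adjusted p = 0.0393). *Btrc*, which encodes βTrCP and was named after its value was seen, was at 0.43 (± 0.22 SE, limma-voom adjusted p = 0.211). *Fbxw11*, the other βTrCP gene of the list and likewise named afterwards, was at 0.17 (± 0.15 SE, limma-voom adjusted p = 0.476). By group means *Fbxw11* was at 100 and 112 CPM and *Btrc* at 26.2 and 35.7 CPM, in the order Nf1 and dKO-labelled. *Skp1a* and *Rbx1* passed in 2 and *Otub1* in 1 of the 6 fits with 1 library left out, and with the neuron score *Skp1a* was at -0.084, *Rbx1* at 0.30 and *Otub1* at 0.010 on the log2 scale. *Otub1* also did not pass with library size only or with sex or the muscle score as covariate.

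In the *Ddit4* list of 15 genes, 2 rose and 1 fell, where 11.1% and 8.22% of all genes tested did. *Bnip3*, a mitophagy receptor induced by hypoxia, was at 27.8, 29.9 and 23.8 CPM and at 93.8, 86.3 and 56.0 CPM, a log2 change of 1.49 (± 0.23 SE, limma-voom adjusted p = 0.0115). *Epas1*, which encodes the hypoxia-inducible factor HIF-2α, rose by 0.92 (± 0.22 SE, limma-voom adjusted p = 0.0313), and *Trp53*, for p53, fell by 0.71 (± 0.19 SE, limma-voom adjusted p = 0.0394). *Bnip3* passed in 5, *Trp53* in 2 and *Epas1* in 1 of the 6 fits with 1 library left out. With the neuron score the log2 values were 2.06 for *Bnip3*, 1.28 for *Epas1* and -0.79 for *Trp53*, and the last 2 also did not pass with sex as a covariate.

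**Figure D5:**
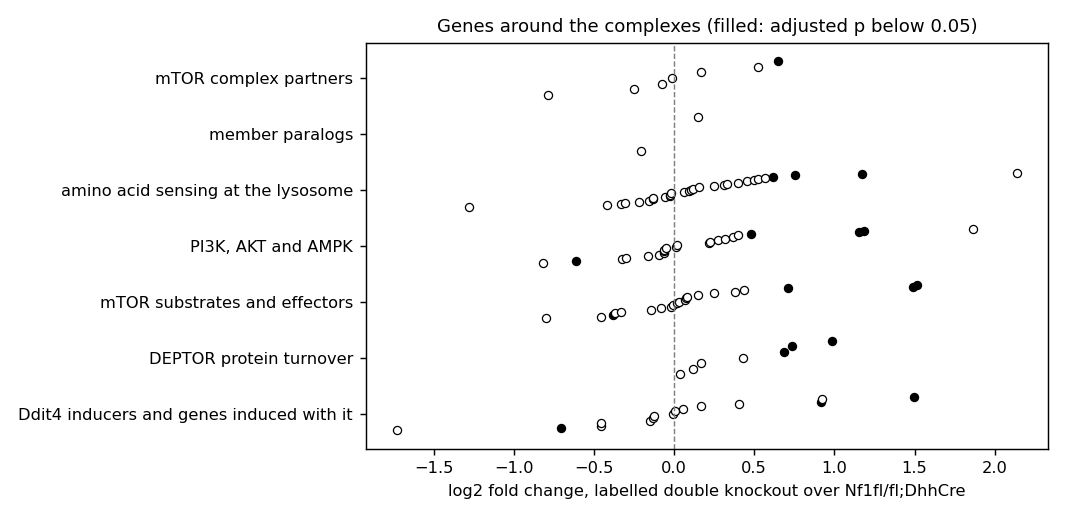
Log2 fold change of each of the 103 genes around the complexes, dKO-labelled libraries over Nf1, 1 row per list and 1 point per gene (filled where the adjusted p-value was below 0.05). There are 15 filled points above 0 and 3 below, against 11.1% and 8.22% of all genes tested, and none stays filled with the neuron score as a covariate.

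The genes whose pattern over the 6 libraries was most like *Deptor* were found by Pearson correlation of log2 CPM among 10221 genes averaging at least 3 in log2 CPM. They were *Tsnax*, *Ubxn2a*, *Mkrn2*, *4833439L19Rik* and *Bcl2l13*, with r from 0.991 to 0.995. All 5 were highest in dKO-labelled replicate 2, as *Deptor* was, and their log2 fold changes ranged from 0.22 to 0.89. Among the members, *Mtor* had the highest r with *Deptor*, at 0.92, followed by *Rptor* at 0.83, *Rheb* at 0.82 and *Mlst8* at 0.71. *Rictor* had r = -0.73. These describe 6 libraries that share the difference in label and the muscle content, and are not tests.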

How the data were processed

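The deposited counts are whole reads per gene symbol, made by the authors from paired-end libraries (RNA amplified with NuGEN Ovation v2, then Nextera XT) aligned to mm10 with TopHat and counted with featureCounts, without normalization. The annotation, strand setting and handling of reads with several alignments are not given in the sources used here. A gene entered the fit if filterByExpr retained it (at least 10 reads, 15 in total), TMM gave the scaling, and limma-voom was run on the label alone (R 4.3.3, edgeR 4.0.16, limma 3.58.1), with Benjamini-Hochberg adjustment over all 15652 genes. The steps were checked on simulated data. CPM used the TMM-scaled library sizes, and log2 values had a prior count of 0.5. A count of 3 corresponds to 0.179 to 0.247 CPM per library on that scale, which covers counting error only. Exon lengths were taken from GENCODE M21 and promoters from RefSeq.

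Named were the members, both paralogs, the targeted genes, up to 3 passing genes per list with the largest fold changes and the 5 genes most like *Deptor*; others are marked, apart from single cell-type markers. Members and lists were chosen with earlier results of these data known. For 4 libraries title and deposited data give different mouse numbers of one genotype. Run 1980 is labelled for 1 dKO-labelled library, replicate 3 or, by the other label, replicate 2. Replicates of a group differed beyond counting noise. By *Xist* and *Ddx3y* levels the Nf1 libraries came from 2 females and 1 male. The dKO-labelled libraries came from 1 female and 2 males, so sex was not balanced between the groups. As alternatives, DESeq2 1.42.0 and its size factors, the quasi-likelihood test of edgeR, library size only, other filters, quality weights, unadjusted p-values, muscle, neuron or sex covariates (sex from *Xist* and *Ddx3y*), leaving out each library and, added after the data were seen, leaving out both replicates 2 were run.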

Additional observations from a re-analysis of the deposited data

How the results depend on the processing

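*Deptor* was higher in the dKO-labelled libraries under every setting run, with log2 fold changes from 0.86 to 1.10 over 12 settings other than leaving out 1 library, 11 of which passed. The exception was the neuron score as covariate (0.86). Leaving out each library gave 0.76 to 1.19. Its log2 ratio to *Mtor* ranged from 0.60 to 0.77, and that to *Rptor*, *Rictor* and *Mlst8* from 0.37 to 0.84. The number of members that passed was 1 with edgeR's quasi-likelihood test, 1 with the sex covariate, 1 without both replicates 2 and 0 with the neuron score, and ranged from 0 to 1 on leaving out each library; *Mlst8* was the gene lost in the first 3. The number of pathway genes that passed, 18, was 10 with the sex covariate, 11 without both replicates 2 and 0 with the neuron score, and 26 with DESeq2, 21 with quality weights and 27 by unadjusted p. The number over all genes tested, 3017, moved the same way, to 2456, 2032, 10, 4574, 3915 and 5513. On leaving out each library the pathway count ranged from 1 to 17 and that of all genes from 383 to 3006.

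Of genes that passed, *Depdc5* (-0.18) and *Skp1a* (-0.084) changed sign with the neuron score, which also moved *Otub1* from 0.74 to 0.010, *Prr5* from 0.65 to 0.14, *Prkca* from 1.49 to 0.50, *Rragb* from 1.17 to 0.48, *Prkab2* from 1.15 to 0.48, *Pik3cb* from -0.61 to -0.24, *Rbx1* from 0.69 to 0.30, *Rraga* from 0.62 to 0.38 and, upward, *Lpin1* from 1.51 to 2.29. In the same fit the values of *Mlst8*, *Bnip3*, *Prkag2*, *Ndrg1* and *Epas1* also grew without passing. *Prr5*, *Rragb*, *Rraga*, *Depdc5*, *Pik3cb*, *Rbx1*, *Epas1* and *Trp53* did not pass without both replicates 2, and *Lpin1* did not with sex as a covariate. The other changes of sign were in genes that did not pass under any setting shown. They were *Rictor* (0.15) and *Tsc1* (-0.82) with the neuron score, *Tsc1* with the muscle score (-0.0085) or sex (-0.068), *Akt1s1* with edgeR (0.052) or DESeq2 (0.047), and *Tsc2* with quality weights (0.025) or without both replicates 2 (0.23). *Ddit4* changed sign with quality weights (0.21) or without both replicates 2 (0.87), *Rhebl1* with quality weights (-0.050), and *Ddit4l* with edgeR (1.20), the muscle score (0.31) or the neuron score (0.54). Leaving out each library gave ranges across 0 for *Akt1s1* (-0.68 to 0.27), *Ddit4* (-1.07 to 0.74), *Ddit4l* (-1.50 to 0.67), *Tsc1* (-0.025 to 0.33) and *Tsc2* (-0.15 to 0.21). DESeq2 gave no adjusted p for *Ddit4* or *Ddit4l*. No replicate numbers pair the mice. The causes were not tested. *Akt1s1* had 6 to 26 reads per library, the fewest of the members, with a CV of 72.8% in the dKO-labelled libraries, and depth and spread between mice were not separated.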

Other observations

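Some genes around the complexes had large differences that did not pass the test and were chosen here after their values were seen. *Rragd*, a RAG GTPase gene that TFEB can induce, was at 11.9, 47.8 and 9.17 CPM in Nf1 replicates 1 to 3 and at 41.8, 130 and 87.7 CPM in the dKO-labelled libraries, a log2 change of 2.14 (± 0.65 SE, limma-voom adjusted p = 0.0589). *Prkaa2*, the catalytic AMPK subunit typical of muscle, was at 29.8, 75.7 and 21.4 CPM and at 75.9, 255 and 125 CPM, a log2 change of 1.87 (± 0.57 SE, limma-voom adjusted p = 0.0584). Both genes, like *Deptor*, were highest in replicate 2 of each group, the libraries with the most muscle markers, whose part in these values was not tested.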
